A study of Mus musculus with 12 samples.

Results

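Maxillary prominences of wild-type C57BL/6 mouse embryos at embryonic day (E) 12.5 were compared with those of wild-type C57BL/6 embryos at E11.5. The labels give 3 libraries at each of these stages, and these 6 are described here out of 12 in all. The others, 3 at E10.5 and 3 at E14.5 of the same strain and genotype, entered the fit to estimate the spread between libraries. No treatment, transgene or allele is given for any group. Tissue was dissected in whole from embryos, RNA was pooled over 7 littermates (the protocol does not say whether per library or per stage), and polyadenylated RNA was sequenced. The labels speak of biological replicates and independent RNA samples, but not of separate litters for the libraries of a stage. Each p-value therefore rests on library-to-library spread that may be technical in part and may not cover differences between litters. Counts were given for 53801 genes, of which 18365 had enough counts to be tested.

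The maxillary prominence is the paired swelling of the embryonic face that forms the upper jaw, the cheek and the palatal shelves. Its bulk is mesenchyme of neural crest origin, crossed by vessels and nerves and entered by muscle precursors, under a surface epithelium that sends Sonic hedgehog, Wnt, Fgf and Bmp signals into it. The step from E11.5 to E12.5 is the time when the face fuses, the palatal shelves start to grow out and the first cartilage, bone and muscle cells differentiate. The tissue is bulk, so that fewer cells of a type and less RNA per cell cannot be told apart in any result below.

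The libraries held 30332754 to 31308813 counts in genes at E12.5 and 30435535 to 32100104 at E11.5. A count was seen for 25265 to 26712 genes per library at E12.5, against 22633 to 23192 at E11.5. Correlation of log2 CPM (counts per 1e6 counts of the scaled library) was 0.981 to 0.987 among the E12.5 libraries and 0.990 to 0.992 among the E11.5 libraries, and 0.958 to 0.970 between the stages. The first principal component of the 6 libraries held 70.8% of the variance and separated the stages, and the second (10.5%) set E12.5 replicate 1 (44.2) apart from E12.5 replicate 2 (-29.6). The libraries carried the marks of facial mesenchyme at both stages. Twist1, a factor of cranial mesenchyme, had 184, 174 and 235 CPM at E12.5, against 424, 412 and 343 CPM at E11.5, and Lhx8, a LIM homeobox factor of jaw mesenchyme, had 141, 115 and 96.8 CPM at E12.5, against 123, 129 and 125 CPM at E11.5. Hand1, a marker of the distal mandibular arch, had too few counts to be tested. Values below are given for replicates 1, 2 and 3 in this order.

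The E12.5 libraries also differed from the E11.5 libraries in a measure that lies outside the genes. Alignments that overlapped no annotated gene made up 5.03%, 5.43% and 5.25% of all listed alignments at E12.5, against 2.16%, 2.30% and 2.42% at E11.5. The means were 5.24% ± 0.20 at E12.5 and 2.29% ± 0.13 at E11.5 (SD, n = 3 each), and the groups did not overlap (two-sided exact permutation p = 0.1, the smallest that 3 against 3 can give). Ambiguous alignments averaged 6.59% at E12.5 and 6.74% at E11.5, and multiply mapped ones 5.80% and 6.10%, with exact permutation p = 0.5 for each. Long noncoding genes took 1.06%, 0.988% and 1.06% of the counts in genes at E12.5, against 0.669%, 0.720% and 0.690% at E11.5. Because this share split the libraries exactly as the stages did, share and stage cannot be told apart within these 6 libraries. Of the other libraries, replicate 3 of E10.5 had a share of 4.88% against 2.67% and 1.92% in replicates 1 and 2. Its gene levels minus those of replicates 1 and 2 had a median log2 difference of 0.18 over the genes at least 2-fold higher at E12.5 than at E11.5, of -0.18 over those at least 2-fold lower and of 0.003 over all tested genes. Over single gene lists the same difference ran from -0.47 to 0.78, and it is given beside the lists described below where it reached 0.2 in size.

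**Figure D1:**
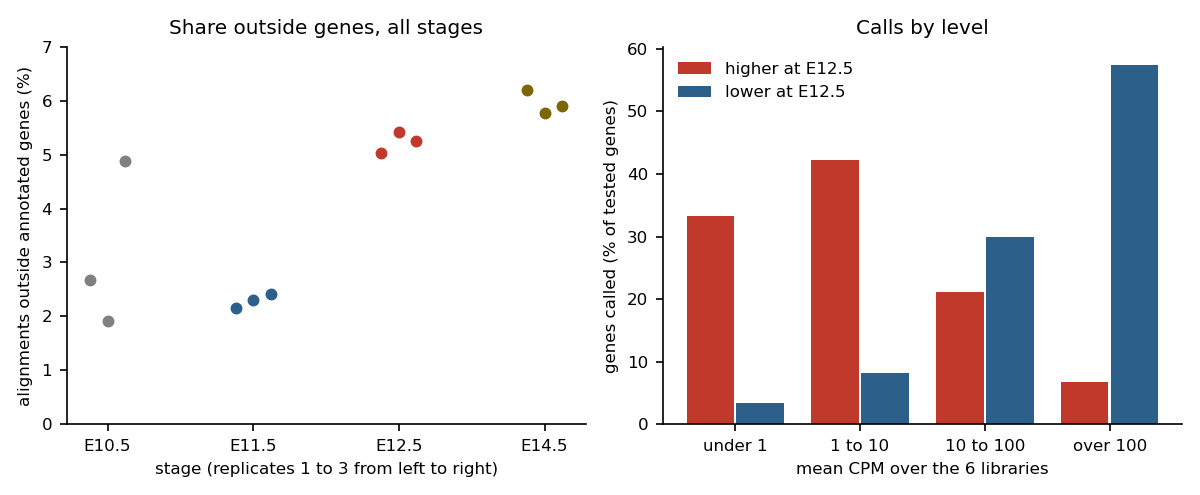
Left, share of listed alignments outside annotated genes (percent) in each library of the 4 stages, in order of age. Right, share of tested genes called higher (red) and lower (blue) at E12.5 than at E11.5 (percent), by mean CPM over the 6 libraries. The E12.5 libraries lie at 5.03% to 5.43% and the E11.5 libraries at 2.16% to 2.42%, and calls turn from 33.3% higher and 3.34% lower under 1 CPM to 6.68% higher and 57.4% lower above 100 CPM.

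Of the 18365 tested genes, 4968 (27.1%) were higher and 4079 (22.2%) lower at E12.5 by edgeR's quasi-likelihood test with Benjamini-Hochberg adjustment, at an adjusted p under 0.05, or 49.3% in either direction. All adjusted p-values below are from this test. A change of at least 2-fold was called for 2772 genes higher (15.1%) and 410 lower (2.23%). The direction varied with the level of the gene. Among genes with a mean under 1 CPM, 1398 of 4194 were higher and 140 lower, with a median log2 fold change of 0.85. Between 10 and 100 CPM, 1589 of 7542 were higher and 2259 lower (median -0.08), and above 100 CPM 154 of 2305 were higher and 1324 lower (median -0.30). With upper-quartile scaling in place of TMM, the median of all genes shifted by 0.11 on the log2 scale and the split became 5880 higher and 2865 lower, or 67.2% of calls higher against 54.9%. Directions below are relative to the TMM scaling.

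The share of alignments outside genes was also put into the fit as a covariate over all 12 libraries. Then 407 genes were higher (2.22%) and 286 lower (1.56%). For each group of genes the count that passed in that fit is given with its main count, since most calls ended there. Median log2 fold changes are given from both fits for most lists, because a call can end while the fold stays similar. Over all tested genes this median was 0.06 without and 0.04 with the share in the fit. Genes that passed in both fits are named as such.

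**Figure D2:**
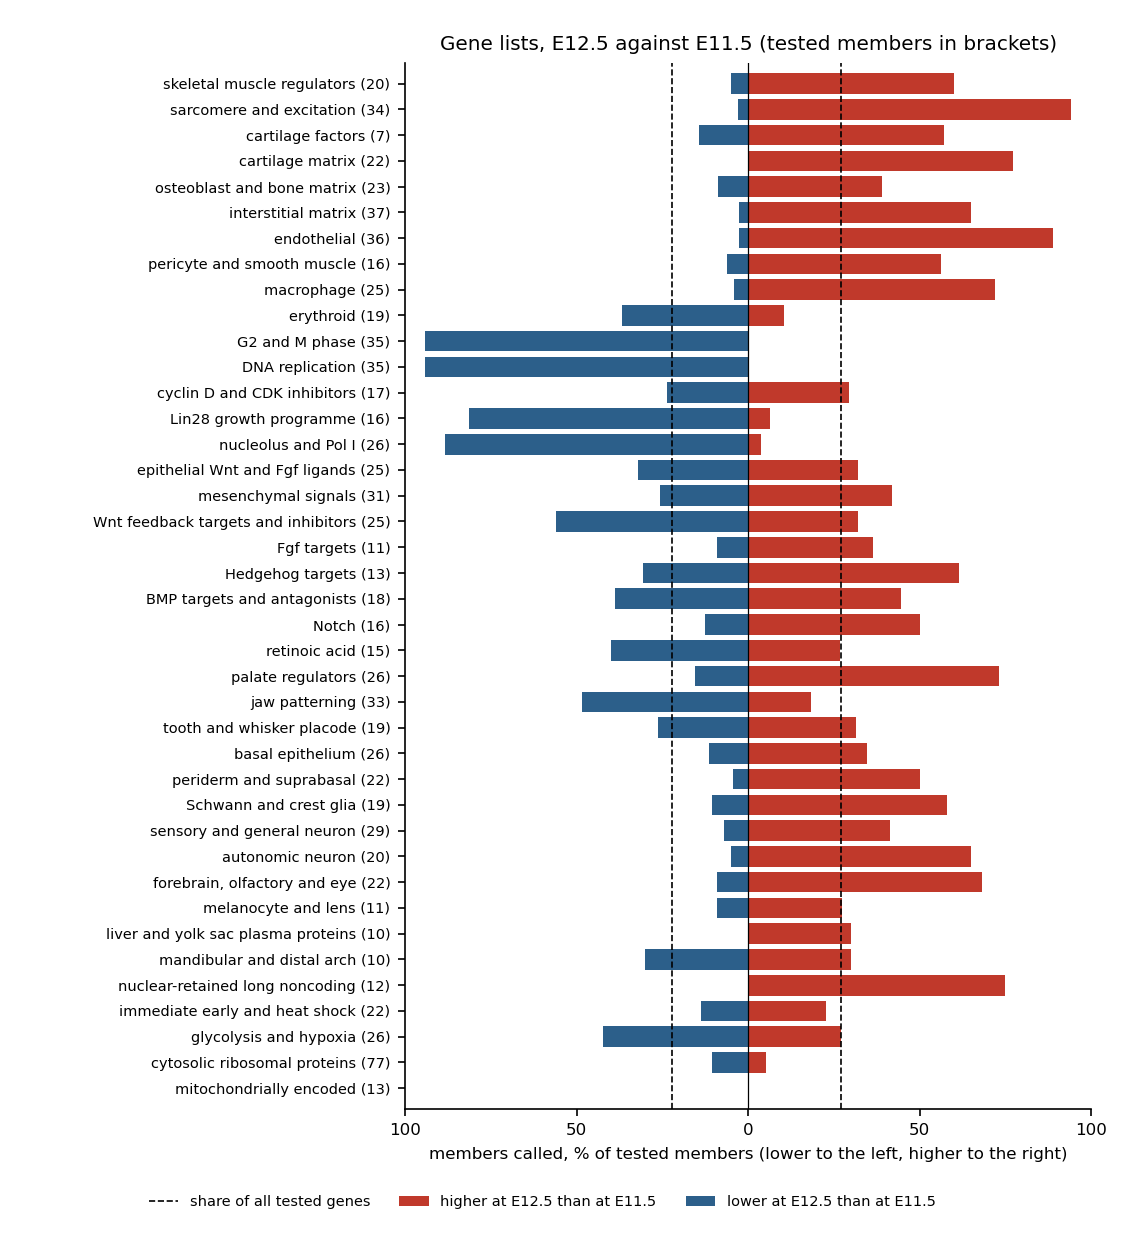
Share of the tested members of each gene list (number in brackets) called higher (red, to the right) and lower (blue, to the left) at E12.5 than at E11.5, in percent. Dashed lines mark the shares of all tested genes (27.1% higher, 22.2% lower). The sarcomere, endothelial and cartilage matrix bars reach furthest to the right, and the G2 and M phase, DNA replication and nucleolus bars furthest to the left.

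Sonic hedgehog signalling showed a rise of its ligand and of its direct readouts. Shh (chr5:28456815-28467256, minus strand), the ligand made by the oral epithelium, had 15.3, 17.3 and 13.4 CPM at E12.5, against 4.38, 2.52 and 3.03 CPM at E11.5 (log2 fold change 2.21, SE 0.23, adjusted p = 1.67e-05). Ptch1, the receptor that is also a target of the pathway, had 206, 185 and 232 CPM at E12.5, against 100.3, 87.3 and 95.97 CPM at E11.5 (log2 fold change 1.13, SE 0.14, adjusted p = 5.36e-05). Hhip, a membrane protein that binds the ligand and is induced by it, had 15.6, 16.2 and 22.6 CPM at E12.5, against 2.42, 1.86 and 2.48 CPM at E11.5 (log2 fold change 3.005, SE 0.28, adjusted p = 5.94e-06). For each of these 3 genes the lowest E12.5 library was above the highest E11.5 library.

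Forkhead genes that respond to the pathway in facial mesenchyme moved with them. Foxf1 had 41.8, 48.05 and 53.8 CPM at E12.5, against 12.4, 10.8 and 8.71 CPM at E11.5 and Foxf2 had 64.8, 65.3 and 101.5 CPM at E12.5, against 18.3, 10.6 and 13.3 CPM at E11.5, with log2 fold changes of 2.17 and 2.46. Foxl1 averaged 23.7 ± 5.49 CPM at E12.5 and 5.34 ± 2.04 CPM at E11.5 (log2 fold change 2.15, SE 0.38, adjusted p = 6.28e-04). The opposite direction was seen for the transducers Gli2 and Gli3. Gli2 had 63.7, 66.3 and 78.1 CPM at E12.5, against 110.1, 108 and 109 CPM at E11.5, and Gli3, which acts mainly as a repressor when the ligand is absent, had 111, 98.4 and 128 CPM at E12.5, against 197, 188 and 190.4 CPM at E11.5 (adjusted p = 2.90e-04 and 4.02e-05). The coreceptors Cdon and Gas1 were lower as well (64.8 ± 7.47 CPM at E12.5 against 91.8 ± 2.94 CPM at E11.5 and 93 ± 10.3 CPM at E12.5 against 136 ± 7.96 CPM at E11.5), while Boc, the coreceptor that resembles Cdon, averaged 55.03 ± 6.68 CPM at E12.5 and 55.9 ± 6.28 CPM at E11.5 (adjusted p = 0.88). In all, 8 of 13 tested members of this list were higher and 4 lower, against 27.1% and 22.2% of all tested genes, with a median log2 fold change of 0.84 (0.63 with the share in the fit). Libraries of the stages did not overlap in these 12 cases, as was so for 30.7% of all genes higher and 26.6% lower. With the share of alignments outside genes in the fit, Hhip stayed higher and Gli2 and Gli3 stayed lower, and no other member passed. In E10.5 replicate 3 the list had a median of 0.42 over replicates 1 and 2 on the log2 scale. Shh, which is counted with the ligands, also passed (log2 fold change 2.23, adjusted p = 0.0217). Across the 4 stages from E10.5 to E14.5, Shh averaged 5.77 ± 0.753, 3.31 ± 0.961, 15.3 ± 1.94 and 3.28 ± 0.921 CPM and Hhip 8.55 ± 3.77, 2.26 ± 0.341, 18.1 ± 3.91 and 24.6 ± 3.31 CPM.

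Wnt feedback genes were lower in more cases than they were higher. Of 25 feedback targets and inhibitors, 14 were lower (56%) and 8 higher (32%), against 22.2% and 27.1% of all tested genes. With the share in the fit 8 were lower and 4 higher. The median log2 fold change was -0.83 (-0.53 with the share in the fit). Lef1 (chr3:131110471-131224356, plus strand), the nuclear partner of beta-catenin that is itself a target, had 12.9, 12.2 and 13.2 CPM at E12.5, against 193, 218 and 174 CPM at E11.5. Nkd1, an intracellular feedback inhibitor, had 19.5, 24.8 and 29.7 CPM at E12.5, against 133, 138 and 126 CPM at E11.5. The 3 libraries of a stage were close to each other for both genes, and the stages were far apart. Sfrp2, a secreted binder of Wnt ligands, was among the members that went up, with 481, 409 and 566 CPM at E12.5, against 116, 89.7 and 92.9 CPM at E11.5 (log2 fold change 2.28, SE 0.18, adjusted p = 1.50e-06). Dkk2, another secreted inhibitor, did not pass (42.2 ± 12.9 CPM at E12.5 against 35.7 ± 7.095 CPM at E11.5, adjusted p = 0.37). Lef1, Nkd1 and Sfrp2 passed in both fits. About 13.7% of the exon bases of Lef1 are shared with a predicted gene on the other strand, which held 137 counts in the 6 libraries against 18118 for Lef1.

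Among 25 ligands of the facial epithelium, 8 were higher and 8 lower, against 27.1% and 22.2% of all tested genes, with a median of -0.15. All 6 Wnt ligands of this list that were called were lower. Wnt9b and Wnt3, ligands of the fusing facial ectoderm, had 2.43 ± 1.23 CPM at E12.5 against 71.03 ± 6.902 CPM at E11.5 and 1.44 ± 0.582 CPM at E12.5 against 30.8 ± 2.396 CPM at E11.5. Wnt7b had 11.8, 21.9 and 23.5 CPM at E12.5, against 98.4, 85.8 and 81.1 CPM at E11.5 (log2 fold change -2.21, SE 0.25, adjusted p = 2.56e-05). Bmp4, a growth factor of facial epithelium and mesenchyme, had 27.5, 26.4 and 30.5 CPM at E12.5, against 53.7, 58.3 and 55.1 CPM at E11.5 (log2 fold change -0.98). Edn1, the endothelin ligand that patterns the lower jaw, was higher but low in level, with 2.18, 1.99 and 2.58 CPM at E12.5, against 0.961, 0.966 and 0.714 CPM at E11.5 (adjusted p = 0.00375). Among the ligands with the highest levels, Bmp7 (67.8 ± 11.02 CPM at E12.5 against 75.4 ± 4.59 CPM at E11.5), Pdgfa (59.96 ± 16.6 CPM at E12.5 against 66.4 ± 6.99 CPM at E11.5) and the Notch ligand Jag2 (64.8 ± 14.5 CPM at E12.5 against 57.3 ± 8.69 CPM at E11.5) did not pass. With the share in the fit, 2 members were higher and 4 lower (median -0.37), with Shh, Wnt9b, Wnt3 and Bmp4 among them.

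Of 31 signals made by the mesenchyme, 13 were higher (41.9%) and 8 lower (25.8%), against 27.1% and 22.2% of all tested genes. The median was 0.59 (3 and 4, median 0.04, with the share in the fit). Cxcl14 (chr13:56288643-56296551, minus strand), a chemokine, had 31.4, 24.2 and 47.6 CPM at E12.5, against 466, 554 and 341 CPM at E11.5 (log2 fold change -3.72, SE 0.35, adjusted p = 6.65e-06). It was the mesenchymal signal with the largest fall of those named. Fgf18, a growth factor of skeletal precursors, had 6.61, 5.56 and 9.003 CPM at E12.5, against 1.03, 1.31 and 0.816 CPM at E11.5 (log2 fold change 2.74, SE 0.28, adjusted p = 1.33e-05), and Wnt16 averaged 2.33 ± 0.552 CPM at E12.5 and 0.289 ± 0.0501 CPM at E11.5. Gdf10 and Bmp3, members of the TGF-beta superfamily, averaged 35.1 ± 8.83 CPM at E12.5 against 8.91 ± 3.54 CPM at E11.5 and 19.7 ± 7.84 CPM at E12.5 against 4.499 ± 2.86 CPM at E11.5. The log2 fold change of Bmp3 was 2.13, and 2.77 without E11.5 replicate 2. Fgf10, which acts from the mesenchyme on the oral epithelium, had 15.4, 13.4 and 14.8 CPM at E12.5, against 17.5, 20.2 and 17 CPM at E11.5, and its difference did not pass (adjusted p = 0.0554). Cxcl14, Fgf18 and Wnt16 passed in both fits. Cxcl14 averaged 33.6 ± 18.5, 454 ± 107, 34.4 ± 11.99 and 219 ± 26.5 CPM at E10.5, E11.5, E12.5 and E14.5.

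**Figure D3:**
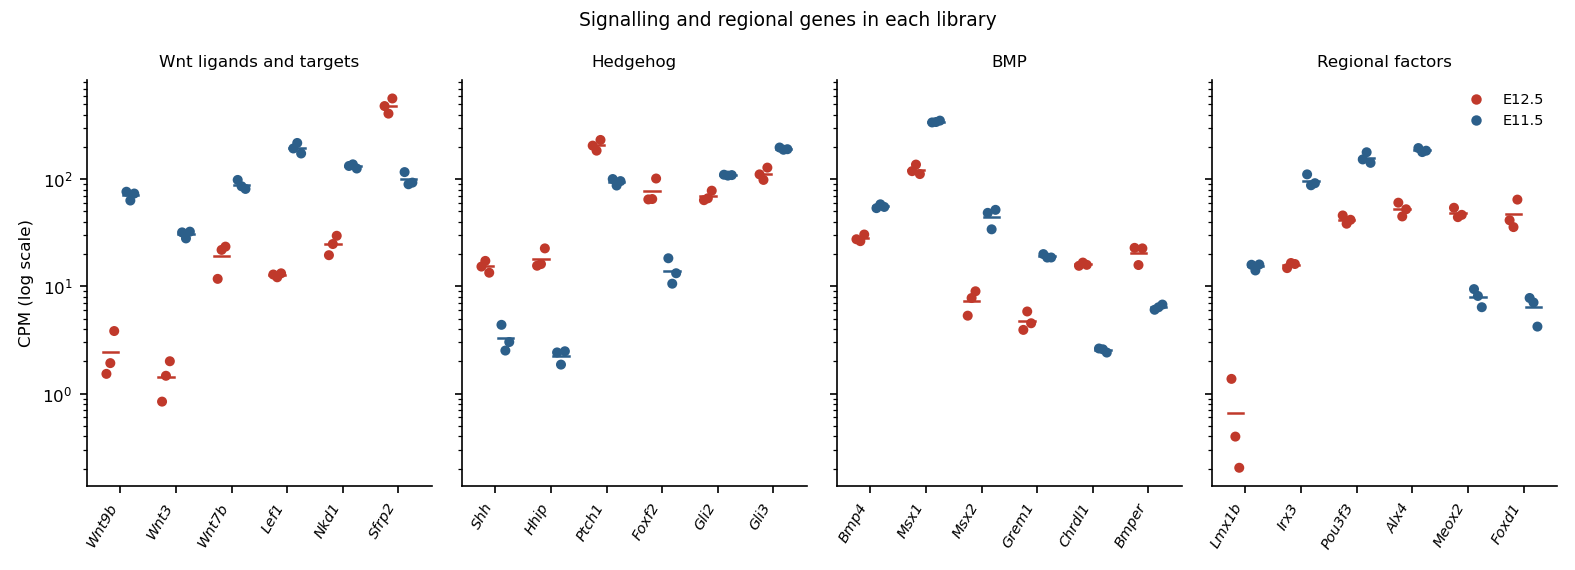
CPM (log axis) of signalling and regional genes in each library, with the 3 E12.5 libraries (red) left of the 3 E11.5 libraries (blue) and a line at the mean of each stage. Shh, Ptch1 and Hhip lie higher and Lef1 and Nkd1 lower at E12.5, with no overlap between the stages.

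BMP signalling split between its targets and its antagonists. Msx2 and Msx1, homeobox genes induced by BMP ligands, were lower, with 5.33, 7.79 and 9.003 CPM at E12.5, against 48.5, 34.1 and 51.8 CPM at E11.5 for Msx2 and 119, 137 and 112 CPM at E12.5, against 338, 341 and 352 CPM at E11.5 for Msx1. Called members of the Id family of BMP targets, Id1, Id2 and Id3, were lower too, and Id4 was higher. Of the secreted antagonists that were called, all but Grem1 were higher. Chrdl1 (chrX:143285674-143394262, minus strand) had 15.6, 16.7 and 15.9 CPM at E12.5, against 2.63, 2.59 and 2.41 CPM at E11.5 (log2 fold change 2.65, SE 0.10, adjusted p = 1.09e-08), Bmper averaged 20.4 ± 4.003 CPM at E12.5 and 6.402 ± 0.358 CPM at E11.5 and Chrd 6.58 ± 0.937 CPM at E12.5 and 2.31 ± 0.692 CPM at E11.5. Grem1, another antagonist, was lower, with 3.93, 5.83 and 4.53 CPM at E12.5, against 20.01, 18.6 and 18.6 CPM at E11.5 (log2 fold change -1.999, SE 0.26, adjusted p = 8.05e-05). Fst did not pass (24.4 ± 6.67 CPM at E12.5 against 21.02 ± 0.488 CPM at E11.5). Of the 18 members, 8 were higher (44.4%) and 7 lower (38.9%), against 27.1% and 22.2% of all tested genes. The median was 0.24 (3 and 3, median 0.38, with the share in the fit), and Msx2, Chrdl1, Bmper and Grem1 passed in both fits.

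The Notch list had 8 of 16 members higher (50%) and 2 lower (12.5%), against 27.1% and 22.2% of all tested genes. The median was 0.43 (3 and 1, median 0.58, with the share in the fit). Hey2 (chr10:30832359-30842801, minus strand), a repressor induced by Notch, was among the 2 members called lower, with 6.11, 5.99 and 7.49 CPM at E12.5, against 89.8, 111 and 70.6 CPM at E11.5 (log2 fold change -3.79, SE 0.19, adjusted p = 6.05e-08). Hes1, another repressor of this kind, went up, with 44.2, 55.2 and 57.6 CPM at E12.5, against 24.9, 21.9 and 24.5 CPM at E11.5. Dll1, a ligand, had 3.59, 4.67 and 4.68 CPM at E12.5, against 1.07, 1.42 and 1.19 CPM at E11.5, and Dll3, a related protein of neural and somite cells, 1.65, 3.696 and 3.92 CPM at E12.5, against 0.0712, 0.276 and 0.204 CPM at E11.5. Hes1 lost its call with the share in the fit (adjusted p = 0.0927), while Hey2, Dll1 and Dll3 kept theirs. The receptor Notch2 averaged 129 ± 18.9 CPM at E12.5 and 120.2 ± 8.99 CPM at E11.5 and did not pass.

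Of 15 retinoic acid genes, 4 were higher and 6 lower, against 27.1% and 22.2% of all tested genes, with a median of -0.36 (-0.13 with the share in the fit). The binding proteins Crabp1 and Crabp2 were lower (153 ± 33.7 CPM at E12.5 against 376 ± 36.9 CPM at E11.5 and 166 ± 42.03 CPM at E12.5 against 347 ± 16.8 CPM at E11.5). Cyp26b1, an enzyme that degrades retinoic acid, had 46.2, 53.8 and 63.8 CPM at E12.5, against 114, 116 and 100.1 CPM at E11.5 (log2 fold change -1.01, SE 0.12, adjusted p = 3.94e-05), whereas its relative Cyp26a1 was higher with 18.3, 17.4 and 14.2 CPM at E12.5, against 10.5, 7.28 and 10.2 CPM at E11.5. Aldh1a2, an enzyme of synthesis, was higher at 143 ± 27.2 CPM at E12.5 against 69.8 ± 10.05 CPM at E11.5, and its direction turned with the share in the fit (log2 fold change -0.13, adjusted p = 0.89). None of the 15 genes passed there by edgeR, with 2 higher and 2 lower at an unadjusted p under 0.05. Fgf feedback genes changed little in size. Spry4 had 16.6, 20.4 and 23.6 CPM at E12.5, against 14.7, 13.4 and 13.8 CPM at E11.5 and Spry1 averaged 28.2 ± 7.104 CPM at E12.5 and 16.2 ± 1.97 CPM at E11.5. Of 11 Fgf feedback genes 4 were higher (36.4%) and 1 lower (9.09%), against 27.1% and 22.2% of all tested genes, with no change of 2-fold. The median was 0.21 (none, median 0.17, with the share in the fit, also at an unadjusted p under 0.05). Dusp6, the most abundant of the named members, did not pass (154 ± 31.6 CPM at E12.5 against 133 ± 13.2 CPM at E11.5).

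Regulators of palate growth were mostly higher. Of 26 palate regulators, 19 were higher and 4 lower (8 and 2 with the share in the fit), with a median log2 fold change of 0.62 (0.80 with the share in the fit). Foxd1, a forkhead factor, had 41.4, 35.7 and 64.5 CPM at E12.5, against 7.797, 7.08 and 4.22 CPM at E11.5 (log2 fold change 2.89, SE 0.26, adjusted p = 5.77e-06). Sim2, a basic helix-loop-helix factor needed for a normal palate, had 79.2, 69.8 and 107 CPM at E12.5, against 25.8, 11.4 and 19.2 CPM at E11.5 (log2 fold change 2.18, SE 0.26, adjusted p = 4.65e-05). Meox2, a homeobox factor of the palatal shelves, averaged 48.3 ± 5.17 CPM at E12.5 and 7.99 ± 1.53 CPM at E11.5. The lowest E12.5 library exceeded the highest E11.5 library for all of these. Lower were Tbx2, Tbx3, Msx1 and Bmp4. Tbx2, a T-box repressor, had 93.7, 90.6 and 97.95 CPM at E12.5, against 296, 288 and 291 CPM at E11.5 (log2 fold change -1.63, SE 0.15, adjusted p = 4.80e-06), and Tbx3 averaged 83.3 ± 7.73 CPM at E12.5 and 133 ± 6.12 CPM at E11.5. Mn1 did not pass (112 ± 21.8 CPM at E12.5 against 94.8 ± 10.04 CPM at E11.5). Foxd1, Sim2, Meox2 and Tbx2 passed in both fits, and Tbx3 did not (adjusted p = 0.16). Over E10.5, E11.5, E12.5 and E14.5, Foxd1 averaged 23.2 ± 2.98, 6.36 ± 1.89, 47.2 ± 15.2 and 19.2 ± 4.76 CPM, and Sim2 6.86 ± 1.86, 18.8 ± 7.18, 85.3 ± 19.3 and 24.8 ± 4.59 CPM.

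The jaw patterning list held 16 of 33 members lower, 6 higher and 11 not called (9 lower with the share in the fit), with a median of -0.36 (-0.42 there). The Iroquois genes Irx3 (chr8:91798525-91802067, minus strand) and Irx5 (chr8:92357625-92376286, plus strand), which lie on the same chromosome, had 14.8, 16.5 and 16.2 CPM at E12.5, against 111, 87.7 and 91.8 CPM at E11.5 and 9.602, 12.04 and 12.1 CPM at E12.5, against 61.5, 54.5 and 57.8 CPM at E11.5. Their log2 fold changes were -2.61 and -2.36. Irx4, an Iroquois gene on another chromosome that is not a member of the list, had 0.343, 0.244 and 0.465 CPM at E12.5, against 11.1, 10.8 and 9.35 CPM at E11.5 (log2 fold change -4.87, SE 0.23, adjusted p = 3.40e-08). Pou3f3, a POU factor of the upper jaw, had 45.9, 38.4 and 41.8 CPM at E12.5, against 153, 178 and 142 CPM at E11.5 (log2 fold change -1.91, SE 0.12, adjusted p = 3.26e-07), and Alx4, a paired-like homeobox factor of facial mesenchyme, had 60.4, 44.9 and 52.4 CPM at E12.5, against 195, 179 and 184 CPM at E11.5. Each of these genes passed in both fits, with no overlap between the stages. Tfap2b, a factor of neural crest, had 26.9, 42.6 and 52.3 CPM at E12.5, against 129, 130.5 and 117 CPM at E11.5 and kept its call with the share in the fit by a small margin (adjusted p = 0.0488). Lhx8 (118 ± 22.2 CPM at E12.5 against 125 ± 3.204 CPM at E11.5) and Lhx6 (84.8 ± 10.6 CPM at E12.5 against 79.5 ± 3.21 CPM at E11.5), LIM homeobox factors of jaw mesenchyme, did not pass. Of 10 genes of the mandibular arch 3 were higher and 3 lower (1 lower with the share in the fit), against 27.1% and 22.2% of all tested genes. Dlx5 averaged 17.9 ± 6.95 CPM at E12.5 and 20.6 ± 1.399 CPM at E11.5 and Dlx6 5.62 ± 3.31 CPM at E12.5 and 5.38 ± 0.721 CPM at E11.5, and neither passed. The summed level of the mandibular list was 149 to 170 CPM at E12.5 and 164 to 167 CPM at E11.5.

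Sarcomere genes had the largest share of members higher of all lists. Among regulators of the lineage, 12 of 20 were higher and 1 lower, with a median of 0.91 (3 higher, median 0.87, with the share in the fit). Among sarcomere and excitation genes 32 of 34 were higher and 1 lower, with a median of 2.82 (7 higher, median 2.25, with the share in the fit). Myod1, the factor that commits cells to muscle, had 7.61, 10.6 and 10.05 CPM at E12.5, against 2.35, 2.04 and 2.58 CPM at E11.5 (log2 fold change 2.02, SE 0.15, adjusted p = 1.30e-06). Myog, which acts later in differentiation, had 16.96, 29.6 and 16.4 CPM at E12.5, against 4.52, 6.28 and 3.13 CPM at E11.5 (log2 fold change 2.17, SE 0.24, adjusted p = 2.48e-05), and Mymk, a membrane protein of myoblast fusion, 2.06, 3.79 and 3.31 CPM at E12.5, against 0.178, 0.483 and 0.272 CPM at E11.5 (log2 fold change 3.27, SE 0.33, adjusted p = 1.28e-05). Myh3, the embryonic myosin heavy chain, had 41.3, 90.8 and 53.99 CPM at E12.5, against 6.19, 6.903 and 4.25 CPM at E11.5 (log2 fold change 3.42, SE 0.29, adjusted p = 2.78e-06). In these 4 genes E12.5 replicate 2 was the highest library, and no E12.5 library overlapped E11.5. Pax3, a factor of muscle precursors and of neural crest, was the member that was lower, with 10.1, 4.43 and 15.8 CPM at E12.5, against 75.05, 78.4 and 71.4 CPM at E11.5 (log2 fold change -2.89, SE 0.36, adjusted p = 5.64e-05). Nebl, an actin-binding relative of nebulin best known from heart muscle, was the sarcomere gene that was lower (22.2 ± 3.74 CPM at E12.5 against 33.5 ± 2.59 CPM at E11.5). Actn3, an alpha-actinin of fast fibres, did not pass (adjusted p = 0.7). Myod1 and Myh3 passed in both fits, and Myog, Mymk and Pax3 did not (adjusted p = 0.11, 0.7 and 0.11). The summed level of the sarcomere list was 301, 652 and 347 CPM at E12.5, against 103, 115 and 94.6 CPM at E11.5.

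Promoters of called sarcomere genes are shown because many hold the letters bound by muscle factors. The E-box CAGCTG, bound by Myod1 and Myog, was found in 13 of 26 promoters of called members (50%, exact 95% interval 29.9% to 70.1%), against 16.1% of all 27025 promoters. The MEF2 motif (CTA and TAG with 4 bases of any kind between them) was found in 4 of 26 (15.4%, exact 95% interval 4.36% to 34.9%), against 3.70%. Windows ran from 250 bases before to 50 bases after the first start listed for the gene, both strands were searched, and sequences are from RefSeq (GRCm38.p6). Of 32 members called higher, 26 had a promoter in that table. In the 150 bases before the start alone, the E-box was in 34.6% of these promoters against 8.21% of all. A match is a description of the letters, and binding was not measured. In the promoters of Des (chr1:75360042-75360341, plus strand), the intermediate filament of muscle, and Klhl41 (chr2:69669870-69670169, plus strand), a protein of the sarcomere, capitals mark both motifs. The E-box starts at -36 and the MEF2 motif at 6 in Des, and at -127 and -63 in Klhl41, with the start of the gene at 0.
Des: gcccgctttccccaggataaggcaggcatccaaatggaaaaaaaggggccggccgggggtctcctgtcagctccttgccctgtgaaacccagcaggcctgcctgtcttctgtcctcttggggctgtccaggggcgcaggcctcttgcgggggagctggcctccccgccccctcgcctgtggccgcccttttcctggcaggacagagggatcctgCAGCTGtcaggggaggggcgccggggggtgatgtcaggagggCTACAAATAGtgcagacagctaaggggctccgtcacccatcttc
Klhl41: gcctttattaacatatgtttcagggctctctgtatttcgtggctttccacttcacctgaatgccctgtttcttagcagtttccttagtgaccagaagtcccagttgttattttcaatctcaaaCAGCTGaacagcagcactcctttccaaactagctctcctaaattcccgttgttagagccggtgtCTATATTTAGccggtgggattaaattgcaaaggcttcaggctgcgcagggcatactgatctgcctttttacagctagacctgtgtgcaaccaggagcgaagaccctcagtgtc
Des averaged 12.7 ± 4.31 CPM at E12.5 and 4.88 ± 0.486 CPM at E11.5 and Klhl41 6.06 ± 2.31 CPM at E12.5 and 1.43 ± 0.704 CPM at E11.5. They were chosen for their motifs after the values were seen.

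Cartilage genes rose in most cases. Of 22 matrix genes, 17 were higher, with a median of 2.64 (4 higher, median 1.82, with the share in the fit), and none lower by edgeR, DESeq2 or limma-voom, also at an unadjusted p under 0.05. Of 7 factors, 4 were higher and 1 lower, with a median of 0.56 (1 lower, median 0.51, with the share in the fit). Sox9, the factor that commits cells to cartilage, had 75.6, 58.5 and 94.1 CPM at E12.5, against 35.6, 29.1 and 34.99 CPM at E11.5 (log2 fold change 1.19, SE 0.15, adjusted p = 5.57e-05). Its partner Sox6 had 41.3, 45.3 and 53.1 CPM at E12.5, against 26.9, 23.2 and 23.7 CPM at E11.5, while Sox5 averaged 28.8 ± 5.16 CPM at E12.5 and 27.2 ± 5.68 CPM at E11.5 and did not pass. Cnmd, a matrix protein of avascular cartilage, averaged 8.96 ± 1.7 CPM at E12.5 and 0.242 ± 0.157 CPM at E11.5 (log2 fold change 5.18, and 5.80 without E11.5 replicate 2). Matn1, a matrilin, had 0.312, 1.25 and 0.784 CPM at E12.5 and no count at E11.5, at least 22.7-fold higher if 3 counts are taken as the limit for the whole E11.5 group. Hapln1, which links aggrecan to hyaluronan, was as abundant at both stages within the spread (21.2 ± 7.93 CPM at E12.5 against 23.4 ± 4.53 CPM at E11.5, adjusted p = 0.64). Trps1 (chr15:50654752-50890463, minus strand), a repressor of chondrocyte maturation, was the factor that was lower, with 84.7, 64.5 and 89.2 CPM at E12.5, against 328, 448 and 288 CPM at E11.5 (log2 fold change -2.16, SE 0.20, adjusted p = 5.69e-06). Trps1 and Cnmd passed in both fits, and Sox9 did not (adjusted p = 0.0813).

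Bone genes were less uniform, with 9 of 23 higher (39.1%) and 2 lower (8.70%), against 27.1% and 22.2% of all tested genes. The median was 0.74 (1 and 1, median 0.58, with the share in the fit). Runx2, the factor that commits cells to bone, had 47.3, 53.5 and 66.6 CPM at E12.5, against 70.7, 80.4 and 64.2 CPM at E11.5 and did not pass (adjusted p = 0.2). Spp1, osteopontin, had 6.11, 6.201 and 7.06 CPM at E12.5, against 0.392, 1.001 and 0.816 CPM at E11.5 (log2 fold change 3.12, SE 0.26, adjusted p = 3.03e-06). Panx3, a channel protein of osteoblasts and chondrocytes, had 2.56, 1.89 and 1.19 CPM at E12.5 and no count at E11.5, at least 53.7-fold higher if 3 counts are taken as the limit for the whole E11.5 group. Alpl, the phosphatase of mineralising cells, averaged 16.01 ± 6.78 CPM at E12.5 and 6.59 ± 1.42 CPM at E11.5 (log2 fold change 1.28, SE 0.28, adjusted p = 0.00235). Pth1r, the receptor of parathyroid hormone, and Cped1 were lower (68.2 ± 7.07 CPM at E12.5 against 116 ± 6.47 CPM at E11.5 and 43.7 ± 3.903 CPM at E12.5 against 80.1 ± 5.73 CPM at E11.5). Spp1 and Cped1 passed in both fits.

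Of 37 genes of the interstitial matrix, 24 were higher and 1 lower (7 higher with the share in the fit), with a median of 0.68 (0.39 there, and 0.22 in E10.5 replicate 3 over replicates 1 and 2). Col14a1, a collagen that associates with fibrils, had 47.1, 77.04 and 66.3 CPM at E12.5, against 6.91, 5.97 and 6.63 CPM at E11.5 (log2 fold change 3.29, SE 0.18, adjusted p = 1.39e-07). Aspn, a small leucine-rich proteoglycan, had 18.99, 47.9 and 35.3 CPM at E12.5, against 1.495, 2.49 and 0.918 CPM at E11.5 (log2 fold change 4.38, SE 0.35, adjusted p = 2.14e-06). Lox, the enzyme that cross-links collagen and elastin, had 68.8, 107 and 142 CPM at E12.5, against 18.8, 21.8 and 17.8 CPM at E11.5, and Thbs2, a thrombospondin, 25.3, 35.9 and 41.01 CPM at E12.5, against 4.88, 5.52 and 3.91 CPM at E11.5. All 4 were higher in every E12.5 library than in any E11.5 library. Col3a1, among the most abundant genes of the tissue, averaged 1351 ± 119.6 CPM at E12.5 and 880.1 ± 61.1 CPM at E11.5 (log2 fold change 0.62), and Fn1, fibronectin, 768 ± 191 CPM at E12.5 and 506 ± 22.4 CPM at E11.5 (0.60). The proteoglycan versican (Vcan) and the collagen Col5a2 did not pass (1042 ± 164 CPM at E12.5 against 955 ± 12.2 CPM at E11.5 and 364 ± 43.7 CPM at E12.5 against 315 ± 37.4 CPM at E11.5). Tnn, a tenascin, was the member that was lower (4.45 ± 1.35 CPM at E12.5 against 7.73 ± 1.02 CPM at E11.5). Its call ended without E12.5 replicate 1 (log2 fold change -0.59) and without E11.5 replicate 2 (-0.70) or 3 (-0.80). Col14a1 passed in both fits, and Aspn, Lox and Thbs2 did not (adjusted p = 0.84, 0.0504 and 0.0695).

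Most called genes of vessels, their supporting cells and macrophages were higher at E12.5, and most called erythroid genes were lower. Of 36 endothelial genes 32 were higher and 1 lower (3 higher with the share in the fit), with a median of 0.86 (0.35 there). In E10.5 replicate 3 this list had a median of 0.38 over replicates 1 and 2. Prox1, a factor of lymphatic endothelium that is also made by other cells, had 12.2, 17.9 and 17.05 CPM at E12.5, against 5.09, 3.93 and 3.401 CPM at E11.5 (log2 fold change 1.93, SE 0.20, adjusted p = 1.48e-05). Clec14a, an endothelial lectin, had 22.9, 19.3 and 20.1 CPM at E12.5, against 9.61, 8.97 and 9.32 CPM at E11.5 (log2 fold change 1.16, SE 0.11, adjusted p = 8.71e-06). Vwf, the clotting factor stored in endothelium, averaged 28.7 ± 9.67 CPM at E12.5 and 10.8 ± 3.64 CPM at E11.5. Mmrn1 and the factors Ets1 and Fli1 were within the spread (23.8 ± 8.48 CPM at E12.5 against 19.9 ± 1.53 CPM at E11.5, 55.1 ± 9.79 CPM at E12.5 against 60.5 ± 4.32 CPM at E11.5 and 34.7 ± 10.5 CPM at E12.5 against 33.9 ± 3.67 CPM at E11.5). Esm1, a marker of sprouting tips, was the member that was lower (0.4803 ± 0.182 CPM at E12.5 against 1.098 ± 0.0573 CPM at E11.5), a call that ended without E12.5 replicate 2 (log2 fold change -0.95). Prox1 and Clec14a passed in both fits.

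Of 16 pericyte and smooth muscle genes 9 were higher and 1 lower, with a median of 1.37 (3 higher, median 0.52, with the share in the fit, and a median of 0.33 in E10.5 replicate 3 over replicates 1 and 2). The summed level of this list was 812, 772 and 909 CPM at E12.5, against 866, 826 and 833 CPM at E11.5. The stages overlapped in this sum. Rgs5, a marker of pericytes, had 14.6, 21.9 and 19.95 CPM at E12.5, against 3.95, 3.76 and 3.64 CPM at E11.5 (log2 fold change 2.31, SE 0.17, adjusted p = 1.22e-06), Cspg4, the proteoglycan NG2, 13.4, 18.1 and 19.98 CPM at E12.5, against 4.38, 4.87 and 4.42 CPM at E11.5, and Acta2, smooth muscle actin, 44.2, 75.4 and 41.3 CPM at E12.5, against 10.3, 11.2 and 10.95 CPM at E11.5. Pdgfrb, the receptor that recruits pericytes, averaged 125 ± 13.3 CPM at E12.5 and 106 ± 6.99 CPM at E11.5 and did not pass. Cald1, caldesmon, was lower (379.7 ± 52.8 CPM at E12.5 against 537 ± 19.4 CPM at E11.5). Among 25 macrophage genes, 18 were higher and 1 lower, with a median of 1.02 (1 higher, median 0.90, with the share in the fit). The complement chains C1qa and C1qc averaged 9.93 ± 1.23 CPM at E12.5 against 4.103 ± 0.8901 CPM at E11.5 and 12.6 ± 1.21 CPM at E12.5 against 5.58 ± 1.24 CPM at E11.5, and the scavenger receptor Stab1 had 47.4, 38.9 and 56.02 CPM at E12.5, against 21.97, 14.9 and 21.6 CPM at E11.5. Pf4, a chemokine of platelets and macrophages, went the other way with 13.7, 11.5 and 7.55 CPM at E12.5, against 20.1, 26.5 and 22.1 CPM at E11.5 (log2 fold change -1.07, SE 0.21, adjusted p = 0.00135), whereas Cx3cr1, a chemokine receptor of macrophages, did not pass (6.55 ± 1.42 CPM at E12.5 against 5.79 ± 0.647 CPM at E11.5).

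Of 19 erythroid genes, 7 were lower (36.8%) and 2 higher (10.5%), against 22.2% and 27.1% of all tested genes. The median was -0.56 (4 lower, median -1.17, with the share in the fit). In E10.5 replicate 3 this list had a median of 0.45 over replicates 1 and 2. Hbb-bh1, an embryonic beta globin, had 205, 75.2 and 87.6 CPM at E12.5, against 1069.8, 1209 and 1147 CPM at E11.5 (log2 fold change -3.22, SE 0.33, adjusted p = 1.39e-05). Hemgn, a nuclear protein of erythroid cells, had 2.34, 0.641 and 1.07 CPM at E12.5, against 17.7, 16.9 and 18.8 CPM at E11.5. Gata1, the factor of the lineage, averaged 0.925 ± 0.3397 CPM at E12.5 and 2.597 ± 0.511 CPM at E11.5. Hba-a2, an alpha globin, was higher (41.99 ± 10.3 CPM at E12.5 against 14.2 ± 2.68 CPM at E11.5), and so was the adult beta globin Hbb-bs, with 69.6, 241 and 122 CPM at E12.5, against 21.4, 56.1 and 18.98 CPM at E11.5. The call of Hbb-bs (log2 fold change 2.16) ended without E12.5 replicate 2 (1.57) and without E11.5 replicate 1 (1.94) or 3 (1.89), and without E11.5 replicate 2 the value was 2.83. Its direction turned with the share in the fit (-0.72). Globin genes share near-identical sequence within each cluster, so that counts between members of a cluster are uncertain. Globins took 0.403%, 0.382% and 0.333% of counts at E12.5, against 0.531%, 0.669% and 0.526% at E11.5. Hbb-bh1 and Hemgn passed in both fits. Without E12.5 replicate 1, the log2 fold change was -3.83 for Hbb-bh1 and -4.38 for Hemgn, against -3.22 and -3.72 with it.

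Genes of cell division were lower almost without exception. Of 35 genes of G2 and M phase, 33 were lower, with a median of -0.59. In the fit with the share 4 of them passed, 23 were lower at an unadjusted p under 0.05, and the median was -0.51. Of 35 DNA replication genes 33 were lower, with a median of -0.68. In that fit 4 of them passed, 17 were lower at an unadjusted p under 0.05, and the median was -0.38, beside -0.21 in E10.5 replicate 3 over replicates 1 and 2. None of either list was higher by edgeR, DESeq2 or limma-voom, also at an unadjusted p under 0.05. These were small and uniform changes, with 2 members of each list lower by at least 2-fold. Of all tested genes 22.2% were lower, and of those above 100 CPM 57.4% were (median -0.30). Bub1, a kinase of the spindle checkpoint, had 126, 98.6 and 98.8 CPM at E12.5, against 211, 219.7 and 231 CPM at E11.5 (log2 fold change -1.03, SE 0.11, adjusted p = 1.60e-05). Kif11, the motor that separates spindle poles, had 143, 121 and 141 CPM at E12.5, against 251, 241 and 259 CPM at E11.5, and Cenpe, a motor of the kinetochore, 211, 147 and 157 CPM at E12.5, against 319.7, 287 and 352 CPM at E11.5. Rrm2, the small subunit of ribonucleotide reductase, had 167, 143 and 143 CPM at E12.5, against 314, 299.8 and 342 CPM at E11.5 (log2 fold change -1.07, SE 0.09, adjusted p = 3.75e-06), and Mcm10, a replication initiation factor, 53.7, 45.3 and 43.1 CPM at E12.5, against 92.8, 89.2 and 100.6 CPM at E11.5. E12.5 replicate 1 was the highest of its stage for Bub1, Cenpe, Rrm2 and Mcm10 and still lay below every E11.5 library. The exceptions in G2 and M phase were Cdc25b, a phosphatase that starts mitosis (32.1 ± 3.53 CPM at E12.5 against 31.02 ± 2.41 CPM at E11.5), and Kif23, a motor of cytokinesis (98.6 ± 15.7 CPM at E12.5 against 111 ± 4.56 CPM at E11.5). In replication they were Cdt1, a licensing factor (44.4 ± 3.32 CPM at E12.5 against 49.4 ± 4.11 CPM at E11.5), and Fen1 (2.45 ± 0.531 CPM at E12.5 against 2.13 ± 0.588 CPM at E11.5), whose exons overlap another gene. Bub1, Kif11, Rrm2 and Mcm10 passed in both fits.

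Promoters of these lists are shown for the letters that mark cell cycle genes. The cell cycle homology region (CHR, TTTGAA or TTCGAA) was found in 20 of 27 promoters of G2 and M phase genes called lower (74.1%, exact 95% interval 53.7% to 88.9%), against 19.4% of all promoters and 13.99% of those of tested genes. CCAAT, the box bound by NF-Y, was found in 22 of 27 (81.5%), against 37.9% of all. E2F letters (the letters GGCGGGA, the letters GGCGCGA or the letters TTTGGCG) were found in 14 of 27 replication promoters (51.9%, exact 95% interval 31.9% to 71.3%), against 15.0% of all and 25.7% of those of tested genes. Within the 150 bases before the start, the share with a CHR was 25.9% against 9.89% of all promoters. The letters of this motif are contained in those of the TCF/LEF motif CTTTGAA. In the promoters of Bub1 (chr2:127831810-127832109, minus strand) and Top2a (chr11:99024140-99024439, minus strand), the topoisomerase of mitotic chromosomes, capitals mark CHR and CCAAT on either strand. In Bub1, CCAAT starts at -68 and -42 and the CHR at 14. Top2a holds 6 CCAAT boxes and 4 CHR matches.
Bub1: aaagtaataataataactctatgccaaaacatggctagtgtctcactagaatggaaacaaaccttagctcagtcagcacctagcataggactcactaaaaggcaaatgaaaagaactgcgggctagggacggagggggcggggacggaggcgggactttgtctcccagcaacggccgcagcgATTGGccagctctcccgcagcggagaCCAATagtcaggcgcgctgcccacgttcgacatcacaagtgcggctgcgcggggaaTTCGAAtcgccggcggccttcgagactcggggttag
Top2a: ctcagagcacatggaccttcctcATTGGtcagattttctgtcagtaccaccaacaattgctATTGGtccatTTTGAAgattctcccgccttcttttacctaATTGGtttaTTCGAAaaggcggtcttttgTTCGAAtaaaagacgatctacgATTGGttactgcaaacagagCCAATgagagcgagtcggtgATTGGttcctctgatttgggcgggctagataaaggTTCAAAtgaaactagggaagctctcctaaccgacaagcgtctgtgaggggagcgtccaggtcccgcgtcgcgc
These promoters were chosen from the called members for their motifs, after the values were seen.

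The D cyclins, which take cells through G1, did not move together. Ccnd1 had 181, 137 and 184 CPM at E12.5, against 174, 140.3 and 173 CPM at E11.5 and Ccnd3 averaged 188 ± 14.8 CPM at E12.5 and 204 ± 9.23 CPM at E11.5, and neither passed, while Ccnd2 was lower (571 ± 87.1 CPM at E12.5 against 711 ± 42.7 CPM at E11.5). The call of Ccnd2 ended without E12.5 replicate 1 (-0.29) or 2 (-0.24) and without E11.5 replicate 1 (-0.28) or 3 (-0.31). The inhibitor Cdkn1c, an imprinted gene that holds cells out of the cycle, had 212, 255 and 276 CPM at E12.5, against 159, 162 and 146 CPM at E11.5 (log2 fold change 0.67, SE 0.10, adjusted p = 1.86e-04), and the antiproliferative gene Btg2 had 22.4, 35.2 and 24.05 CPM at E12.5, against 13.03, 13.7 and 13.5 CPM at E11.5. Cdkn1c passed in both fits, with part of its exons shared with a predicted gene. Of 17 genes of this list, 5 were higher and 4 lower, against 27.1% and 22.2% of all tested genes (2 higher with the share in the fit).

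Genes of embryonic growth and of ribosome production were lower. Of 16 genes of the Lin28 growth programme, 13 were lower and 1 higher (9 lower with the share in the fit), with a median of -0.94 (-1.003 there). Dusp9, a phosphatase of MAP kinases, had 18.4, 16.2 and 17.4 CPM at E12.5, against 68.8, 55.7 and 74.9 CPM at E11.5 (log2 fold change -1.94, SE 0.11, adjusted p = 1.39e-07). Arid3b, a DNA-binding protein, had 13.2, 11.1 and 11.6 CPM at E12.5, against 33.3, 26.1 and 34.5 CPM at E11.5, and Lin28b, which blocks let-7 microRNAs, 9.79, 5.77 and 8.07 CPM at E12.5, against 20.7, 20.7 and 25.5 CPM at E11.5. Hif3a, a member of the hypoxia-inducible factor family, was higher with 47.9, 67.5 and 72.8 CPM at E12.5, against 31.2, 29.9 and 24.3 CPM at E11.5, which did not pass with the share in the fit. Dusp9, Arid3b, Lin28b, Sall4 and Trim71 passed in both fits. Of 26 nucleolar genes 23 were lower and 1 higher (1 lower with the share in the fit), with a median of -0.45 (-0.25 there) and no change of 2-fold. Of all tested genes 22.2% were lower, and of those above 100 CPM 57.4% were (median -0.30). Ncl, nucleolin, had 878, 716 and 842 CPM at E12.5, against 1344, 1365 and 1392 CPM at E11.5 (log2 fold change -0.75, SE 0.10, adjusted p = 8.55e-05), and Npm1, nucleophosmin, 2038, 1849 and 1394 CPM at E12.5, against 2988, 3081 and 3068 CPM at E11.5. Myc, the factor that drives many nucleolar genes, was the member that was higher, with 29.2, 34.1 and 37.4 CPM at E12.5, against 19.6, 20.2 and 19.7 CPM at E11.5 (log2 fold change 0.76, SE 0.11, adjusted p = 1.90e-04; 0.37 and adjusted p = 0.24 with the share in the fit).

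Ribosomal protein genes followed the library more than the stage. Of 77, 8 were lower (10.4%) and 4 higher (5.19%), both below the 22.2% and 27.1% of all tested genes. The median was -0.19 (0.36 with the share in the fit, and -0.45 in E10.5 replicate 3 over replicates 1 and 2). With the share in the fit none passed by edgeR, and at an unadjusted p under 0.05 9 were higher. Their summed level was 86162, 91736 and 54313 CPM at E12.5, against 88788, 90288 and 92137 CPM at E11.5, so that E12.5 replicate 3 stood apart from the other 5 libraries. Mitochondrially encoded genes were also lowest there (31479 CPM against 44367 and 46842 CPM in the other E12.5 libraries and 46148 to 53741 CPM at E11.5). The median log2 fold change of these 13 genes was -0.12 (0.20 with the share in the fit, and -0.31 in E10.5 replicate 3 over replicates 1 and 2). Rps2 had 1482, 1601 and 1185 CPM at E12.5, against 2143, 2057 and 2212 CPM at E11.5 (log2 fold change -0.59, SE 0.13, adjusted p = 0.00266).

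Of 26 glycolysis and hypoxia genes 11 were lower and 7 higher, against 22.2% and 27.1% of all tested genes, with a median of -0.17 (3 lower, median -0.05, with the share in the fit). Slc2a3 (chr6:122727809-122801640, minus strand), a high-affinity glucose transporter, had 38.8, 39.3 and 41.6 CPM at E12.5, against 149.6, 131 and 147 CPM at E11.5 (log2 fold change -1.84, SE 0.12, adjusted p = 4.20e-07). Slc16a3, a lactate exporter, had 15.7, 25.9 and 18.4 CPM at E12.5, against 46.03, 36.8 and 47.3 CPM at E11.5, and the enzyme Pgk1 341, 369 and 289 CPM at E12.5, against 575, 575 and 637 CPM at E11.5. Members called higher included Car9, a carbonic anhydrase, with 1.496, 0.886 and 1.77 CPM at E12.5, against 0.285, 0.449 and 0.272 CPM at E11.5, and Ndrg1, a gene induced by hypoxia, with 5.95, 7.48 and 7.09 CPM at E12.5, against 3.24, 3.31 and 2.28 CPM at E11.5. Slc2a3 and Slc16a3 passed in both fits. The glycolytic isomerase Gpi1 and the aldolase Aldoa did not pass (158 ± 21.7 CPM at E12.5 against 176 ± 4.87 CPM at E11.5 and 216 ± 47.6 CPM at E12.5 against 266 ± 32.8 CPM at E11.5).

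Epithelial genes varied with the library as well as with the stage. Of 26 basal epithelium genes 9 were higher (34.6%) and 3 lower (11.5%), against 27.1% and 22.2% of all tested genes. The median was 0.33 (1 higher, median 0.23, with the share in the fit). Of 22 periderm and suprabasal genes 11 were higher (50%) and 1 lower (4.55%), with a median of 1.08 (1 lower, median 1.70, in that fit). Of 19 genes of tooth and whisker placodes 6 were higher and 5 lower, against 27.1% and 22.2% of all tested genes, with a median of 0.22 (3 and 1, median -0.21). The summed level of the basal list was 1257, 2111 and 1603 CPM at E12.5, against 1532, 1458 and 1456 CPM at E11.5, so that E12.5 replicate 1 lay below and replicates 2 and 3 above the E11.5 libraries. The part of this spread in the epithelial results was not tested. Krt17, a keratin of placodes and periderm, had 20.7, 88.6 and 43.3 CPM at E12.5, against 4.56, 4.66 and 3.26 CPM at E11.5 (log2 fold change 3.61, SE 0.44, adjusted p = 4.56e-05). Lamb3, a chain of the basement membrane laminin, had 8.95, 15.3 and 11.6 CPM at E12.5, against 2.85, 2.55 and 3.54 CPM at E11.5 (log2 fold change 2.001, SE 0.21, adjusted p = 1.67e-05), and Tbx1, a T-box factor of oral and dental epithelium and of head muscle, 16.4, 22.8 and 26.02 CPM at E12.5, against 2.46, 2.59 and 1.598 CPM at E11.5. For Krt17 the highest E12.5 library was more than 4-fold above the lowest, and the log2 fold change without it was 2.94. Gabrp, a receptor subunit counted here with the periderm genes, was lower with 1.59, 3.48 and 2.87 CPM at E12.5, against 35.4, 37.5 and 34.04 CPM at E11.5 (log2 fold change -3.75, SE 0.26, adjusted p = 6.90e-07). Trp63, the factor of stratified epithelium, averaged 95.6 ± 8.42 CPM at E12.5 and 129 ± 5.93 CPM at E11.5, and Krt5, a basal keratin, 65.1 ± 23.5 CPM at E12.5 and 124 ± 26.3 CPM at E11.5, both called lower. The direction of Krt5 turned with the share in the fit (log2 fold change 0.39), and its call ended without E12.5 replicate 1 (-0.68) and without E11.5 replicate 1 (-0.91) or 2 (-0.78). The epithelial cadherin Cdh1 (122 ± 33.5 CPM at E12.5 against 100.6 ± 12.4 CPM at E11.5) and the keratin Krt14 (172 ± 58.2 CPM at E12.5 against 171 ± 45.8 CPM at E11.5) did not pass. Lamb3, Tbx1 and Gabrp passed in both fits. The ligand Shh was also highest in E12.5 replicate 2 but lowest in replicate 3. The part of epithelial content in its rise was not tested.

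Autonomic neuron genes gave some of the largest rises. Of 20, 13 were higher and 1 lower (5 and 1 with the share in the fit), with a median of 2.50 (2.11 there). Dbh (chr2:27165233-27183200, plus strand), the enzyme that makes noradrenaline, had 1.65, 8.03 and 5.75 CPM at E12.5, against 0.0356, 0 and 0.03401 CPM at E11.5. With 514 counts in all at E12.5 and 2 at E11.5, its ratio was 224 (95% counting interval 61.7 to 1854). Hand2, a factor of sympathetic neurons that also marks the mandibular arch, had 8.23, 15.03 and 14.7 CPM at E12.5, against 0.605, 0.242 and 0.17 CPM at E11.5 (log2 fold change 5.22, SE 0.38, adjusted p = 1.02e-06; 5.91 without E11.5 replicate 1), and shares 19.6% of its exon bases with Hand2os1 on the other strand. Gata3 was the member that was lower, with 7.79, 5.53 and 7.14 CPM at E12.5, against 16.5, 15.9 and 20.9 CPM at E11.5, and Gata2 did not pass (22.5 ± 4.71 CPM at E12.5 against 16.3 ± 1.7 CPM at E11.5). E12.5 replicate 1 had the lowest level of Dbh and Hand2 in its stage, yet lay above every E11.5 library. Gata3 passed in both fits, and Hand2 and Dbh did not (adjusted p = 0.0985 and 0.17). Over the 4 stages in order of age, Hand2 averaged 0.0589 ± 0.0226, 0.339 ± 0.233, 12.7 ± 3.84 and 4.497 ± 0.8105 CPM, and Dbh 0.0363 ± 0.03698, 0.0232 ± 0.0201, 5.15 ± 3.23 and 0.805 ± 0.0987 CPM.

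Sensory and general neuron genes had 12 of 29 members higher (41.4%) and 2 lower (6.90%), against 27.1% and 22.2% of all tested genes. Their median was 1.38 (2 higher, median 1.52, with the share in the fit). Forebrain, olfactory and eye genes had 15 of 22 higher and 2 lower, with a median of 1.98 (4 higher, median 1.93, and -0.23 in E10.5 replicate 3 over replicates 1 and 2). By limma-voom, 7 and 10 members of these lists were higher. Ntrk2, a neurotrophin receptor, had 27.2, 32.8 and 41.7 CPM at E12.5, against 2.78, 5.695 and 3.13 CPM at E11.5 (log2 fold change 3.13, SE 0.26, adjusted p = 2.33e-06) and passed in both fits. Lhx2, a factor of forebrain, eye and olfactory epithelium, had 0.842, 39.6 and 23.1 CPM at E12.5, against 0.748, 3.07 and 1.56 CPM at E11.5, and Fezf1, a factor of olfactory neurons, 0.249, 13.7 and 6.01 CPM at E12.5, against 0, 0.794 and 0.136 CPM at E11.5. In both genes E12.5 replicate 1 was no higher than the highest E11.5 library while replicates 2 and 3 were above all of them. Elavl3, an RNA-binding protein of neurons, had the same order with 1.62, 27.7 and 13.2 CPM at E12.5, against 0.285, 2.14 and 0.782 CPM at E11.5. Emx2, a homeobox gene of forebrain and craniofacial mesenchyme, was lower (6.83, 9.897 and 10.2 CPM at E12.5, against 30.8, 39.5 and 19.4 CPM at E11.5). Tubb3, a neuronal tubulin, and Stmn2, a neuronal protein of growth cones, did not pass, with 14.6, 102 and 55.1 CPM and 6.14, 51.6 and 21.6 CPM at E12.5. The summed level of the sensory and general neuron list was 402, 813 and 579 CPM at E12.5, against 434, 595 and 422 CPM at E11.5. The stages overlapped in that sum. The summed level of the forebrain list was 119, 314 and 231 CPM at E12.5, against 80.6, 98.4 and 65.5 CPM at E11.5. A test by limma-voom ended the calls of Lhx2, Fezf1 and Elavl3. Their log2 fold changes were 3.56, 4.40 and 3.72, against 2.74, 3.32 and 2.78 without E12.5 replicate 2 and 4.18, 6.50 and 4.70 without E11.5 replicate 2.

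**Figure D4:**
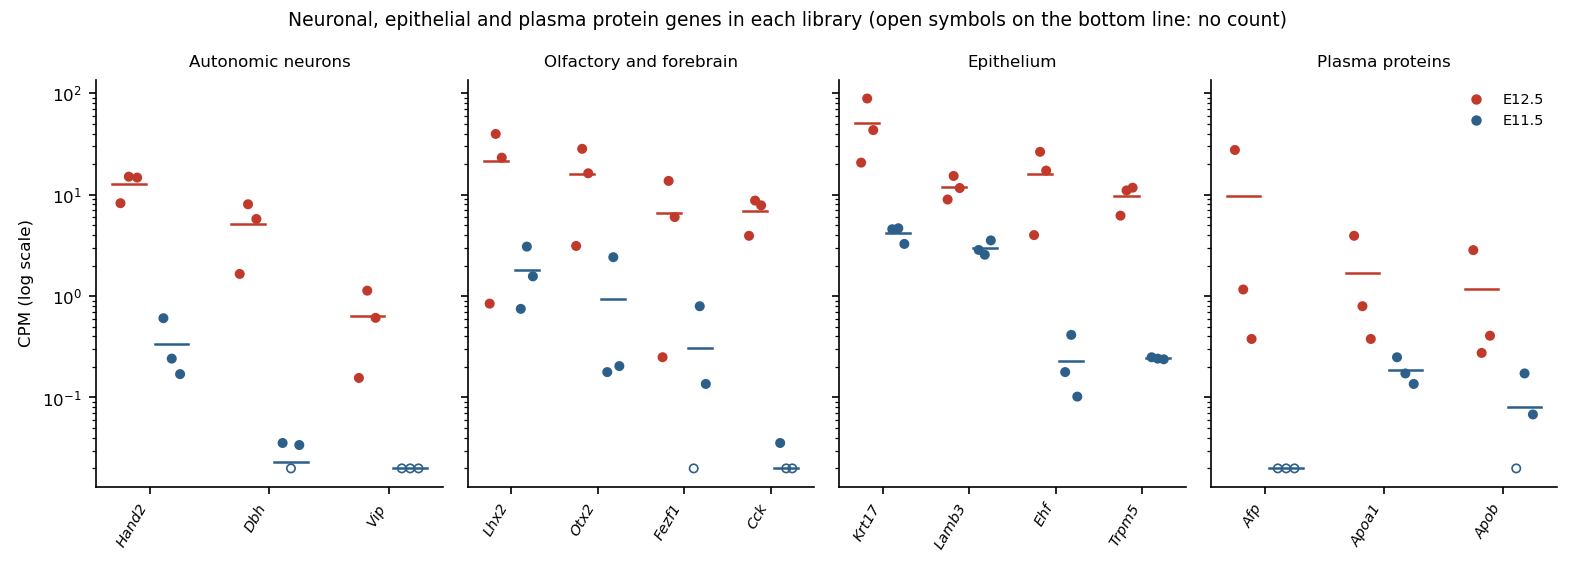
CPM (log axis) of autonomic, olfactory and forebrain, epithelial and plasma protein genes in each library, E12.5 (red) left of E11.5 (blue), with a line at the mean of each stage and open symbols on the bottom line for libraries with no count. The autonomic genes lie above E11.5 in every E12.5 library, while Lhx2 and Fezf1 of E12.5 replicate 1 lie within the E11.5 range and Afp is highest in E12.5 replicate 1.

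Schwann cell and crest glia genes had 11 of 19 members higher and 2 lower, with a median of 0.66 (4 and 1, median 0.76, with the share in the fit). Ednrb, the endothelin receptor of crest derivatives, had 73.6, 48.2 and 53.2 CPM at E12.5, against 18.6, 20.5 and 14.8 CPM at E11.5 (log2 fold change 1.70, SE 0.24, adjusted p = 1.29e-04), and Pmp22, a protein of peripheral myelin, 54.4, 53.9 and 43.2 CPM at E12.5, against 16.8, 21.3 and 15.3 CPM at E11.5. Both passed in both fits, whereas the myelin gene Mbp (16.9 ± 5.71 CPM at E12.5 against 15.3 ± 0.794 CPM at E11.5) did not pass in the main one. Fabp7, a lipid carrier of glia, did not pass and was high in 1 library, with 12.7, 17.8 and 8.19 CPM at E12.5, against 12.6, 91.9 and 10.2 CPM at E11.5. Liver genes were carried by 1 library. Their summed level was 46.6, 6.78 and 3.57 CPM at E12.5, against 2.24, 3.14 and 2.86 CPM at E11.5, with 3 of 10 called higher (against 27.1% of all tested genes), 2 of them by DESeq2 and 1 by limma-voom. With the share in the fit none passed by edgeR, and 2 were higher at an unadjusted p under 0.05. A further 9 of the 19 genes had too few counts to be tested. Apoa1, an apolipoprotein, had 3.93, 0.794 and 0.378 CPM at E12.5, against 0.249, 0.173 and 0.136 CPM at E11.5 (log2 fold change 3.16, SE 0.79, adjusted p = 0.00548; 1.61 without E12.5 replicate 1). Melanocyte and lens genes had 3 of 11 higher and 1 lower, against 27.1% and 22.2% of all tested genes. Their median was 0.87 (2.39 with the share in the fit, and -0.47 in E10.5 replicate 3 over replicates 1 and 2). The 4 called members were under 1 CPM in every library. With the share in the fit none of them passed, and 3 of the list were higher at an unadjusted p under 0.05.

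**Figure D5:**
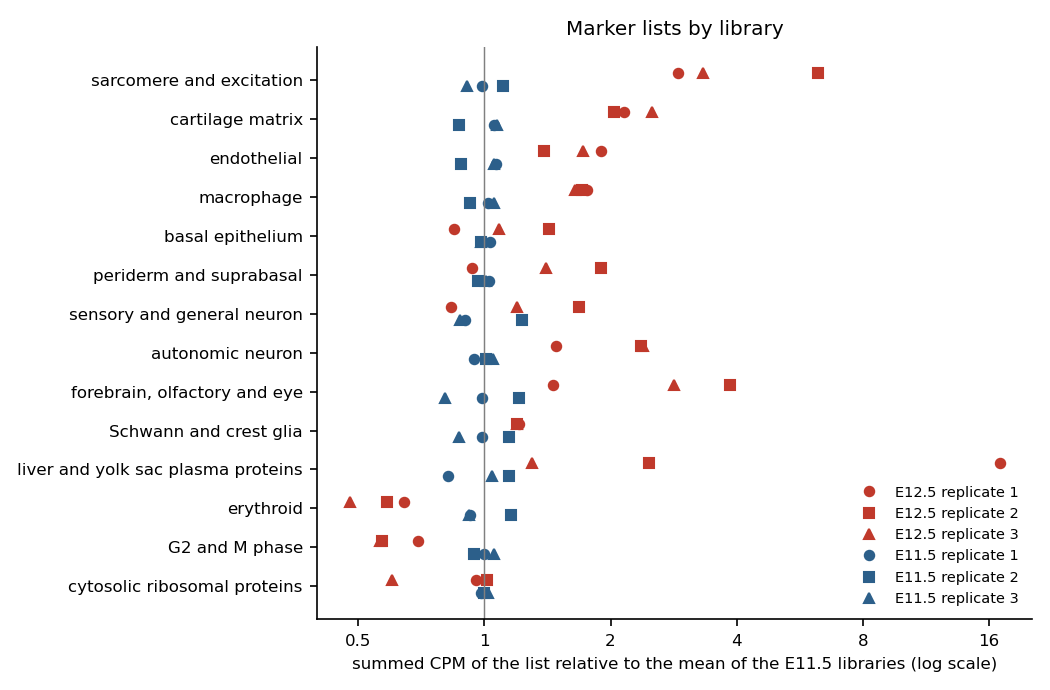
Summed CPM of marker lists in each library, divided by the mean of the E11.5 libraries (log axis, grey line at 1), with E12.5 libraries (red) above E11.5 libraries (blue) and a symbol per replicate. The sums of E12.5 replicate 1 stand apart for liver genes (46.6 CPM against 3.57 and 6.78), those of replicate 2 for sarcomere genes (652 against 301 and 347) and those of replicate 3 for ribosomal protein genes (54313 against 86162 and 91736).

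Long noncoding RNAs that stay in the nucleus were higher in 9 of 12 cases (2 higher with the share in the fit) and lower in none by edgeR, DESeq2 or limma-voom, also at an unadjusted p under 0.05, with a median of 1.71 (0.58 with the share in the fit). In E10.5 replicate 3, with its higher share outside genes, this list had a median of 0.78 over replicates 1 and 2, the largest such difference of the lists. Meg3, an imprinted transcript, had 77.5, 66.8 and 67.1 CPM at E12.5, against 7.97, 7.42 and 9.05 CPM at E11.5 (log2 fold change 3.11, SE 0.30, adjusted p = 9.40e-06), and Miat 20.2, 36.7 and 23.4 CPM at E12.5, against 1.602, 2.07 and 2.28 CPM at E11.5 (log2 fold change 3.75, SE 0.30, adjusted p = 2.01e-06). Malat1 and Neat1, transcripts of nuclear bodies, had 259, 238 and 170.5 CPM at E12.5, against 41.2, 55.9 and 70.7 CPM at E11.5 and 7.76, 6.57 and 5.605 CPM at E12.5, against 0.926, 1.35 and 1.05 CPM at E11.5. Meg3 and Miat passed in both fits, and Malat1 (log2 fold change 0.32, adjusted p = 0.66) and Neat1 (adjusted p = 0.0768) did not. Peg13, another imprinted noncoding transcript, did not pass (29.5 ± 2.605 CPM at E12.5 against 25.4 ± 1.74 CPM at E11.5). By class, 577 of 1582 long noncoding genes were higher and 84 lower, against 4046 and 3871 of 15300 coding genes. Xist, which silences an X chromosome in female cells, had 1287, 9.38 and 969 CPM at E12.5, against 209, 575 and 336 CPM at E11.5 and did not pass. E12.5 replicate 2 lay far below the other 5 libraries. Whether the libraries differed in the sex of the pooled embryos was not tested.

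Early response and heat shock genes gave 5 of 22 higher and 3 lower, against 27.1% and 22.2% of all tested genes. With the share in the fit none passed by edgeR, and 2 were higher and 3 lower at an unadjusted p under 0.05. Egr1, a zinc finger factor induced within minutes of a stimulus, had 4.58, 7.12 and 5.78 CPM at E12.5, against 2.74, 2.002 and 1.97 CPM at E11.5 (log2 fold change 1.38, SE 0.17, adjusted p = 5.49e-05), and Nr4a1, an orphan nuclear receptor, 7.26, 11.1 and 8.33 CPM at E12.5, against 4.81, 5.73 and 4.97 CPM at E11.5. Jun and Ier2 did not pass (57.7 ± 4.06 CPM at E12.5 against 57.4 ± 2.59 CPM at E11.5 and 43.8 ± 4.01 CPM at E12.5 against 50.3 ± 3.897 CPM at E11.5), and the chaperone genes Hsph1 and Dnajb1 were lower (134 ± 19.6 CPM at E12.5 against 203 ± 10.5 CPM at E11.5 and 65.2 ± 4.74 CPM at E12.5 against 86.3 ± 8.698 CPM at E11.5).

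Some genes outside the lists were among the 10 largest called rises or falls of genes with a proper symbol, an average of 5 CPM or more at the stage where they were higher and no overlap between the stages. Ehf, an epithelial factor of the Ets family, had 3.99, 26.4 and 17.2 CPM at E12.5, against 0.178, 0.414 and 0.102 CPM at E11.5 (log2 fold change 6.08, SE 0.68, adjusted p = 2.52e-05; 6.79 without E11.5 replicate 2), and Trpm5, a cation channel of taste and other chemosensory cells, 6.204, 11 and 11.7 CPM at E12.5, against 0.249, 0.242 and 0.238 CPM at E11.5 (log2 fold change 5.29, SE 0.35, adjusted p = 5.25e-07). Avpr1a, a vasopressin receptor, and Glis1, a zinc finger factor, were lower, with 0.218, 1.68 and 0.755 CPM at E12.5, against 13.7, 20.8 and 6.7 CPM at E11.5 and 1.62, 1.59 and 1.25 CPM at E12.5, against 20.7, 26.1 and 17.3 CPM at E11.5. Mettl11b, a methyltransferase-like gene, had 0.0624, 0.336 and 0.145 CPM at E12.5, against 5.52, 5.18 and 6.53 CPM at E11.5. Without E12.5 replicate 2 the log2 fold change of Avpr1a was -4.79 against -3.95, and that of Mettl11b -5.72 against -4.95. Irx4 and Mettl11b passed in both fits, and Ehf, Avpr1a and Glis1 did not (adjusted p = 0.94, 0.23 and 0.0641). At the top of the range of levels, Igfbp5, a binding protein of insulin-like growth factors, had 1654, 2516 and 2525 CPM at E12.5, against 887, 681 and 928 CPM at E11.5 (log2 fold change 1.42, SE 0.18, adjusted p = 6.59e-05), and H19, an imprinted noncoding RNA, 2054, 2599 and 2106 CPM at E12.5, against 1474, 1377 and 1389.8 CPM at E11.5. Gpc3, a glypican, averaged 1206 ± 256 CPM at E12.5 and 734 ± 71.2 CPM at E11.5. Ptma, prothymosin, had 3363, 3182 and 2679 CPM at E12.5, against 4568, 4706 and 4725 CPM at E11.5 (log2 fold change -0.60, SE 0.12, adjusted p = 0.00171), and Actb, the cytoskeletal actin, 2159.8, 2105 and 2147 CPM at E12.5, against 2815, 2850.0 and 2891 CPM at E11.5 (log2 fold change -0.42, SE 0.09, adjusted p = 0.00177). None of these 5 abundant genes passed with the share in the fit.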

How the data were processed

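Polyadenylated RNA was sequenced from 3 E12.5 and 3 E11.5 libraries, with 3 libraries each at E10.5 and E14.5 in the same fit. Groups came from the sample titles. The values deposited by the authors are raw counts per Ensembl gene in whole numbers. FastQC, STAR 2.7.3a, HTSeq 0.12.4 and mm10 were used, per the submitters' processing notes, which give no role or order. The sources used here name no annotation release, filter or strand setting of the counting, and per the labels' protocols the kit (NEBNext Ultra) does not mark strand, so that reads of overlapping genes cannot be assigned by strand. Symbols, coordinates and exons came from GENCODE M21 (GRCm38), which matched 53706 of 53801 identifiers. Closing entries that name no gene (14.8% to 18.6% of listed alignments in the 6 libraries) stayed out of library sizes and tests.

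The tests used edgeR 4.0.16 (R 4.3.3). Genes passing filterByExpr (minimum count 10) were scaled by TMM and fitted with 1 mean per stage over all 12 libraries (quasi-likelihood test, 8 residual degrees of freedom, biological coefficient of variation 0.142). The contrast was E12.5 minus E11.5, with Benjamini-Hochberg adjustment over 18365 genes and a threshold of 0.05. Depth was 30332754 to 32100104 counts in genes, and 3 counts of a scaled library amount to under 0.11 CPM. Reads carry no molecular identifiers, so that floors and exact (Clopper-Pearson) intervals cover counting error only. Libraries of the same stage never agreed within sampling noise (chi-square per degree of freedom of at least 4.38).

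Members, gene lists and motifs were chosen with earlier results of these data known. Named genes are the 10 largest rises and falls whose libraries did not overlap between stages and averaged 5 CPM or more at one of them, up to 6 called members of each list with the largest change, up to 3 uncalled members with the highest level, members against the majority of their list where there are 4 or fewer, the 5 most abundant genes called in each direction, and Xist, Malat1 and Neat1. Not every such gene is described, and some are not reported here. Twist1, Des, Klhl41 and the members listed only by name (Id1 to Id4) were named after their values were seen.

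Promoters (RefSeq, GRCm38.p6) were searched on both strands, with 1 promoter per gene. Among G2 and M phase genes called lower 27 of 33 were matched by symbol, among replication genes 27 of 33. On simulated data for this comparison (17821 genes tested, 200 changed), the fit called 35.8% of those made to differ by 1.5-fold, 70.1% of those by 2-fold and 96.9% of those by 4-fold, with 6.29% of calls false. In the data themselves 49.3% of genes were called, so that these shares need not hold there. Alternatives were other scaling and filters, limma-voom (limma 3.58.1), DESeq2 1.42.0, the 6 libraries alone, a replicate block, a test against 1.5-fold, globin and mitochondrial genes left out, the share outside genes as a covariate, and each library left out in turn.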

Additional observations from a re-analysis of the deposited data

How the results depend on the processing

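The limit that touches most results is that the share of alignments outside genes split the 6 libraries as the stages did. The fit with this share leans mostly on E10.5 replicate 3, which differed most from the rest of its stage. With this share as a covariate, 407 genes were higher and 286 lower (337 and 135 by at least 2-fold), and of the genes named by the rule and called, 79 of 258 kept their call and direction. The lists gave 8 Wnt feedback genes lower, 1 Hedgehog gene higher, 8 palate regulators higher, 9 jaw patterning genes lower, 7 sarcomere, 4 cartilage matrix, 7 interstitial matrix, 3 endothelial, 1 macrophage and 5 autonomic genes higher, and 4 G2 and M phase, 4 replication, 1 nucleolar and 3 glycolysis genes lower. Log2 fold changes that turned were those of Aldh1a2 (-0.13), Vip (-3.62), Epyc (-1.01), Egr3 (-0.13), Hbb-bs (-0.72), Krt5 (0.39), Rpl12 (0.056), Rpl7 (0.027) and Rpl34 (0.022). Their adjusted p-values by edgeR in that fit were 0.73 (Hbb-bs) or above, and the SE of Vip was 44.9. The cause was not tested.

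Against a change of 1.5-fold, 1949 genes were higher and 395 lower (1841 higher by at least 2-fold). The lists then had 11 palate regulators, 8 endothelial and 11 macrophage genes higher, and 7 G2 and M phase, 8 replication, 1 nucleolar and 3 glycolysis genes lower, since this test asks for a larger change. With genes of at least 1 CPM on average, 1764 were higher and 271 lower by at least 2-fold, since fewer genes were tested. Taken over counts in genes plus those outside, the share outside genes differed by 3.35 percentage points instead of 2.94. In the 150 bases before the start, 25.9% of G2 and M phase promoters held a CHR.

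Leaving out each of the 6 libraries in turn gave 4043 to 4914 genes higher and 3327 to 4275 lower (2355 to 2845 and 367 to 482 by at least 2-fold), and a difference of 2.85 to 3.05 percentage points in the share outside genes. Members higher were 15 to 19 for palate regulators, 7 to 8 for Hedgehog, 29 to 31 for sarcomere, 16 to 17 for cartilage matrix, 23 to 26 for interstitial matrix, 27 to 32 for endothelial, 16 to 20 for macrophage and 12 to 14 for autonomic genes. Members lower were 12 to 14 for Wnt feedback, 15 to 18 for jaw patterning, 32 to 34 for G2 and M phase, 32 to 34 for replication, 13 for Lin28, 22 to 25 for nucleolar and 10 to 13 for glycolysis genes. Same-numbered libraries of the stages did not deviate together (correlations of 0.12, 0.15 and -0.04), and a replicate block gave 4942 genes higher and 4252 lower. Among the 258 called named genes, no direction turned under scaling, filter, test or left-out library. Calls were lost for 14 of them by limma-voom and for 80 in the test against 1.5-fold. With 1 library left out, 11 (E12.5 replicate 1) to 22 (E11.5 replicate 3) lost their call. Genes under 0.11 CPM rest on under 3 counts per library.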
